A study of Drosophila busckii and Drosophila melanogaster and Drosophila virilis with 5 samples.

Results

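The genes described here are the 105 annotated genes on chromosome 4 of Drosophila virilis, the dot chromosome, out of 14493 genes on the arms 2L, 2R, 3L, 3R, 4 and X and 14556 in the whole annotation. They were chosen only by position, as every gene that the deposited annotation places on chromosome 4 of the Hi-C assembly. In situ Hi-C, a ligation-based readout of which loci touch in the nucleus, was run on mixed-sex embryos (stages 15 to 16) of D. virilis (stock labelled 15010-1051.0), D. busckii (stock 13000-0081.31) and D. melanogaster (w1118 Oregon R). For each species 2 replicates were merged into 1 map, from which 1 list of boundaries was called. A boundary separates topologically associating domains (TADs), stretches in which loci contact each other more than they contact loci in the next stretch. The fixation of the D. busckii embryos differed, and unligated ends were trimmed enzymatically from their ligated DNA alone, so species and protocol cannot be told apart there. With 1 map per species there is no replicate spread and no test between chromosomes, and neighbouring genes are not independent replicates. Medians are given with exact 95% order-statistic intervals and shares with exact Clopper-Pearson 95% intervals, which cover sampling of genes or boundaries only. The contacts behind each boundary are not listed.

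The dot chromosome is the smallest chromosome of most Drosophila species. In D. melanogaster it is known for a peculiar chromatin state, in which active genes lie embedded in repeat-rich heterochromatin coated by a protein specific to that chromosome. A TAD boundary in flies typically falls at the promoter of an active gene or at a binding site of an insulator protein.

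The set comprised 94 coding genes, 6 noncoding RNA genes and 5 small nucleolar RNA genes, with 48 genes on the plus and 57 on the minus strand. Of the coding genes, 83 had an annotated 5' UTR. The files name 2 members by more than a numbered GJ symbol. These are ey, the Pax6-type transcription factor gene of eye development, and ATPsyn-beta, which encodes the beta subunit of the mitochondrial ATP synthase. No function is given here for the other genes, because the files do not annotate one. The chromosome is a single piece of 1 earlier scaffold, 1842588 bp long and without an internal joint, so no gene order within it depends on the Hi-C scaffolding. The piece was cut from a scaffold of 2019633 bp (139371 to 1981958), and the 177045 bp left out lay at the ends of that scaffold.

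**Figure D1:**
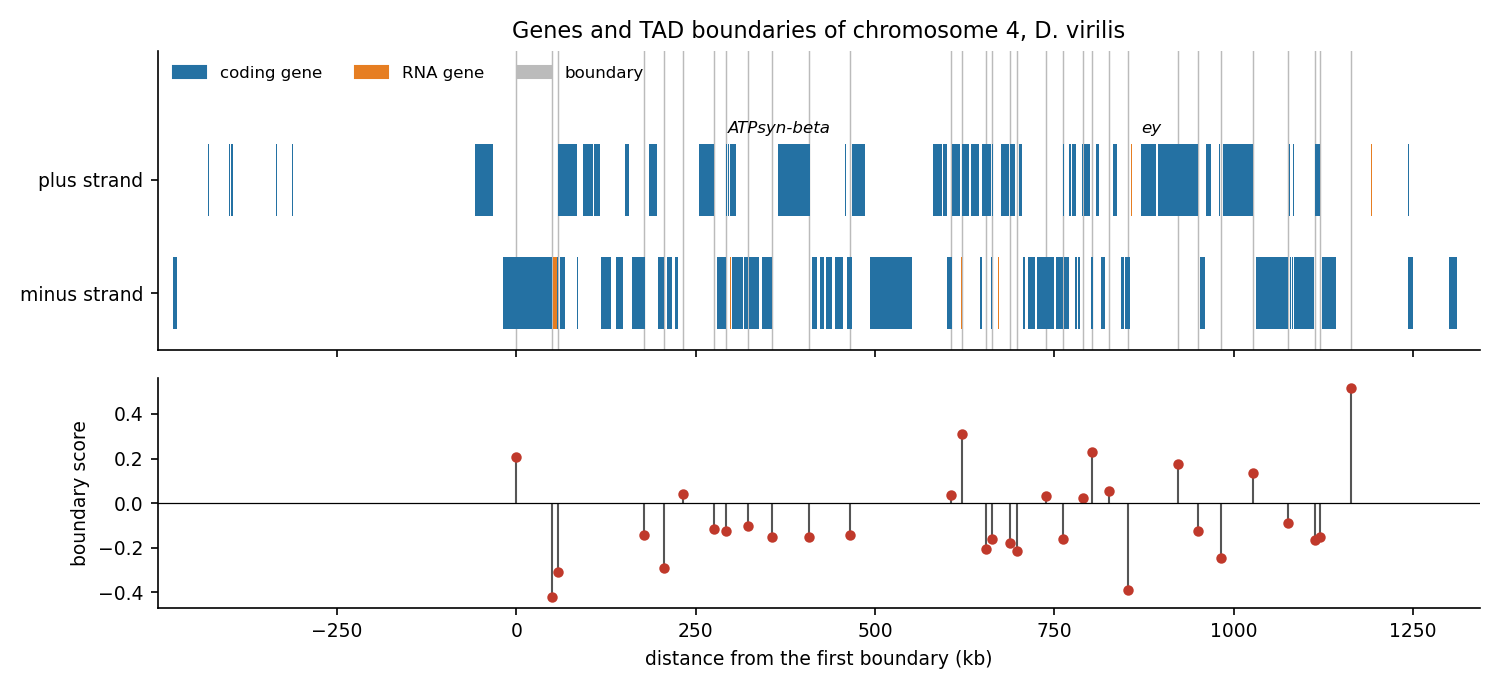
Genes (top, plus strand above minus strand, coding genes in blue and RNA genes in orange; genes shorter than 1.5 kb are drawn 1.5 kb wide) and boundaries (grey lines, with their scores in the lower panel) of chromosome 4 of D. virilis against the distance from the first boundary in kb. The 93 genes that start between the outermost boundaries lie close together, while 7 genes start in the 499.7 kb to the left and 5 in the 180.1 kb to the right.

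Genes of chromosome 4 were long. The median genomic span of its 94 coding genes was 6.38 kb (95% interval 5.42 to 7.78 kb), and the medians of the other 5 arms ran only from 2.06 kb on 3L to 2.51 kb on X. Over all 105 genes the median was 5.83 kb (3.85 to 7.38 kb), against 1.92 kb on 3L to 2.33 kb on X. The interval of chromosome 4 thus lay above the median of each other arm. A span over 10 kb was reached by 29 genes, or 27.6% of the members, against 14.5% of all genes on the arms. The very longest genes of the annotation were elsewhere: the longest member measured 69.0 kb, whereas the longest gene of the other arms measured from 186.4 kb on 3L to 410.1 kb on 3R.

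Members had more exons, longer coding sequences and a larger intron share. A coding gene of chromosome 4 had a median of 7 exons in its longest transcript, against 3 on each other arm. The median longest coding sequence was 2281.5 nt, against 1173 nt on 3L to 1227 nt on 3R. Introns took a median of 45.6% of the span of coding genes, against 16.2% on 3L to 24.3% on X. The longest members were GJ21981 with 69.0 kb and 13 exons, GJ19746 with 57.6 kb and 10 exons, GJ15760 with 55.2 kb and 47 exons, GJ18433 with 44.6 kb and 23 exons, and GJ13730 with 44.3 kb and 13 exons. Their coding sequences were unlike in length. GJ15760 held 27009 nt, the longest coding sequence of the chromosome, whereas GJ21981 held 2427 nt and GJ13730 held 2589 nt. At the other end, the 5 shortest coding genes all consisted of a single exon. GJ26241 measured 480 bp, and GJ26041, GJ26139, GJ25899 and GJ26552 each measured 486 bp with 483 nt of coding sequence. All of these lay before the first boundary. Whether they are copies of each other was not tested, since no D. virilis sequence was used.

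**Figure D2:**
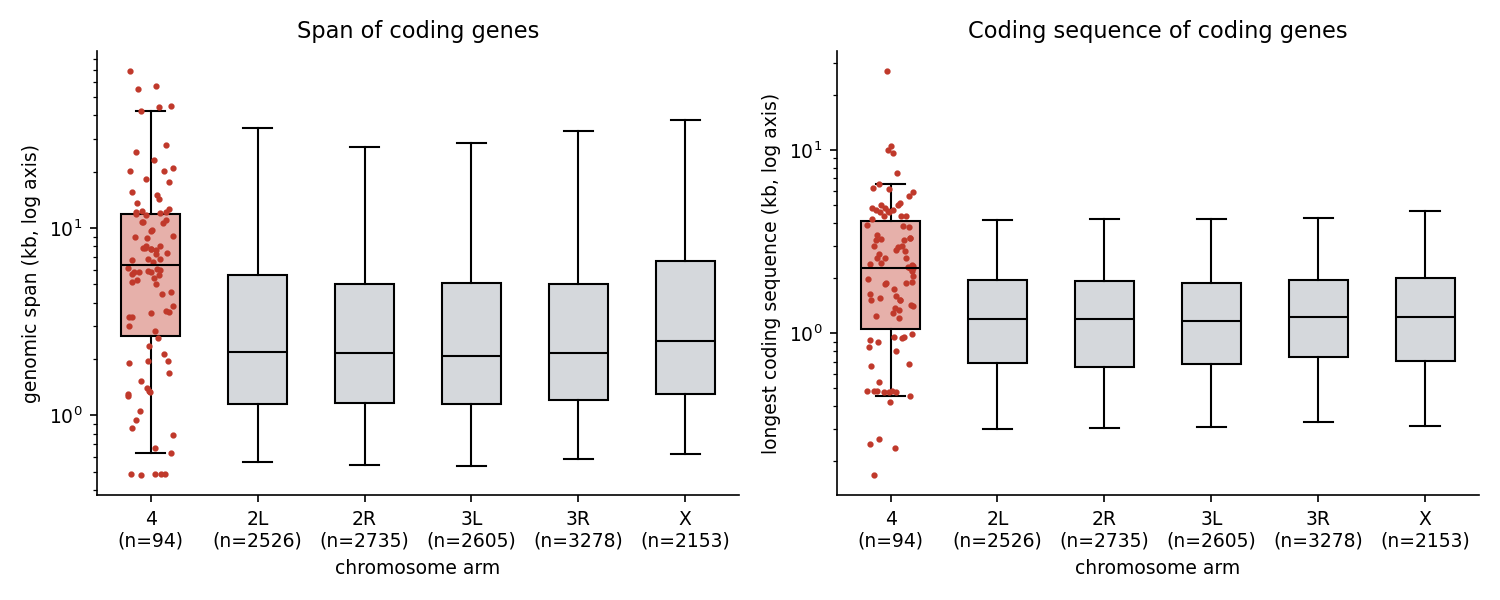
Genomic span (left) and longest coding sequence (right) of coding genes on chromosome 4 and the other arms of D. virilis, in kb on log axes. Boxes show quartiles with the median, whiskers the 5th and 95th percentiles, and points the 94 genes of chromosome 4, whose median span of 6.38 kb lies above the medians of 2.06 to 2.51 kb of the other arms.

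Many members had several annotated start sites. The 105 genes held 194 distinct transcript starts, and 37 genes (35.2%) had more than 1, against 16.4% of all genes on the arms and 15.5% on 3R to 17.0% on 2L among the other arms. GJ18433 had 11 start sites, GJ12536 had 7, and GJ12646 and GJ18403 had 6 each. The coding genes with several starts were the longer ones: their median span was 11.7 kb (35 genes), against 4.56 kb for the 59 coding genes with a single start. The number of annotated starts depends on how much RNA evidence the annotation had for a gene, which the files do not give.

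Members also stood farther apart from each other. The median gap between a gene and the end of the genes before it was 1.94 kb (95% interval 0.976 to 2.58 kb), with overlaps counted as 0, against 0.365 kb on 3L to 0.789 kb on X. Only 11 of 104 neighbours overlapped (10.6%), against 16.9% on X to 24.0% on 2L. Strand order did not stand apart. Of 88 neighbouring pairs of coding genes that did not overlap, 25 were divergent, 23 convergent and 40 on the same strand, and the divergent share of 28.4% lay among the 27.4% to 29.4% of the other arms. The gap of divergent pairs was wider, with a median of 2.63 kb against 0.454 kb on 3L to 0.728 kb on X. Across the assembled chromosome there were 57.0 genes per Mb, fewer than on any other arm (70.1 per Mb on X to 111 per Mb on 2R). Between the outermost boundaries the density was 79.98 per Mb, above the 70.6 per Mb of X and below the 91.8 per Mb of 2L to 113 per Mb of 2R of the remaining arms.

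Chromosome 4 carried 32 boundaries. The score of a boundary is lower where fewer contacts cross it. It was ranked only within the D. virilis list of 2127 boundaries. The median score on chromosome 4 was -0.134, against -0.0543 in the whole list, and 21 of the 32 boundaries lay below the list median. Strong and weak boundaries were both present: 5 fell in the lowest 10% of the list and 4 in the highest 10%. By place, 14 of them lay between genes, 8 of those between divergent, 5 between same-strand and 1 between convergent neighbours. The other 18 lay inside genes, 8 of them in an intron, 5 in a 5' UTR, 3 in a 3' UTR and 2 in coding sequence. These places were not counted for the boundaries of the other arms. Among neighbouring coding genes, 12 of 25 divergent pairs had a boundary between them or within 1000 bp, against 4 of 23 convergent and 9 of 40 same-strand pairs. These are shares of 48% (27.8 to 68.7%), 17.4% (4.95 to 38.8%) and 22.5% (10.8 to 38.5%) on chromosome 4, against 26.0%, 7.24% and 15.4% of such pairs on all arms, so the order of the 3 orientations was that of the whole annotation. Each share was higher on chromosome 4, where gaps were also wider and boundaries more numerous per gene, and the part of these in the shares was not tested.

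The lowest score of the chromosome, -0.422 at 549478 to 549921, ranked 6 in the whole list and lay 0.176 kb from a start of GJ21981, the longest member. The next, -0.389 at 1351994 to 1352703, ranked 11 and lay in an intron of GJ18580, 3.40 kb from the nearest start site. The boundary at 557236 to 557978 had a score of -0.307 and lay 0.391 kb from the start of GJ12430. Its neighbour in rank, at 704616 to 706522 with -0.291, lay 0.541 kb from the start of GJ21113. The fifth, at 1481584 to 1483215 with -0.245, was 2.02 kb from the start of GJ16077. The weakest of all was the last boundary of the chromosome, at 1662001 to 1662902, with 0.516 and 19.96 kb between it and the nearest start site, of GJ18239. The weak boundaries at 1120527 to 1121890 (0.310) and 1302099 to 1302790 (0.228), by contrast, lay 0.142 kb from a start of GJ14351 and 0.208 kb from a start of GJ18882. A start site close by was therefore found at strong and at weak boundaries of this chromosome.

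Seen from the boundaries, start sites were close at 17 of 32 (53.1%, 34.7 to 70.9%), counting any annotated start site within 1000 bp of the boundary centre. The other arms had 58.0% on X to 68.4% on 2L, inside the interval of chromosome 4. The median score was -0.150 for these 17 boundaries and -0.116 for the other 15. Scores ran from -0.422 to 0.310 in the first group and from -0.389 to 0.516 in the second.

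Seen from the genes, 21 of 105 members (20%, 12.8 to 28.9%) started within 1000 bp of a boundary centre, against 13.2% of all genes on the arms and 12.04% on X to 13.8% on 3R. With any annotated start site counted there were 23 such members (21.9%), against 13.8% of all genes. The interval of the 20% share held the 13.2% of all genes and the shares of 2L, 3L and 3R. The median distance from gene start to boundary was 6.53 kb (95% interval 4.64 to 9.48 kb), against 10.4 kb on 3L to 13.7 kb on X, and it was 5.36 kb for the 93 genes between the outermost boundaries. Boundaries were also numerous relative to genes, with 3.28 genes per boundary on chromosome 4 and 6.33 on X to 7.36 on 2R. The part of that ratio in the shorter distances was not tested. The closest starts were those of GJ14351 at 0.142 kb, GJ19213 at 0.158 kb, GJ21981 at 0.176 kb, GJ20357 at 0.186 kb and GJ18433 at 0.202 kb. The farthest were GJ25767 at 473.4 kb, GJ26241 at 429.3 kb, GJ26041 at 400.2 kb, GJ26139 at 397.1 kb and GJ25899 at 334.7 kb, all before the first boundary. The share of gene ends near boundaries was close to the background: 6 members (5.71%, 2.13 to 12.02%) ended within 1000 bp of a boundary centre, against 5.58% of all genes.

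**Figure D3:**
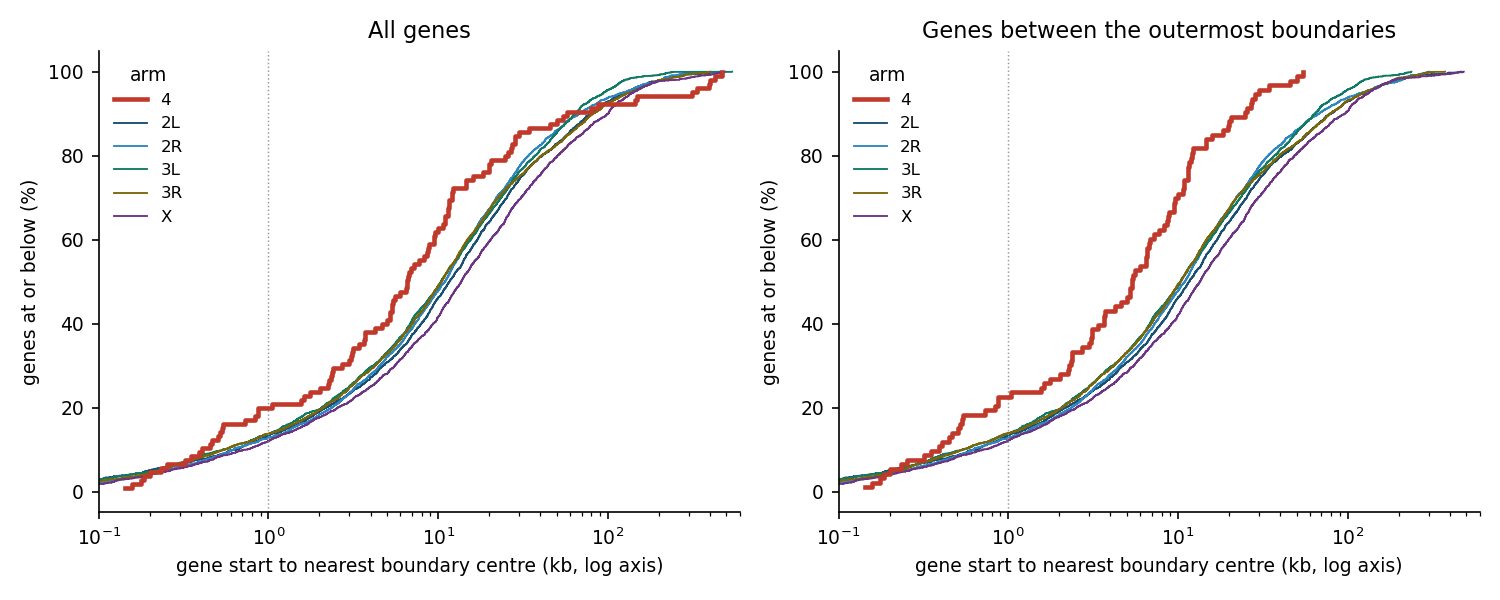
Cumulative share of genes (in percent) against the distance from gene start to the nearest boundary centre (kb, log axis; dotted line at 1 kb) for chromosome 4 and the other arms of D. virilis, for all genes (left) and for genes between the outermost boundaries (right). The chromosome 4 curve lies left of the others around its median of 6.53 kb. In the left panel it also includes the 12 genes outside the outermost boundaries.

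Taken over all spans, boundaries fell inside members comparatively often. A boundary centre lay within 18 genes, all coding (17.1% of the 105, 10.5 to 25.7%), against 8.27% of all genes on the arms and 7.98% on 3R to 8.49% on 2R. No member contained more than 1. Genes with a boundary inside had a median span of 11.98 kb, against 5.75 kb for the coding genes without, and the shares are therefore also given by span. Below 5 kb, 1 of 34 coding genes of chromosome 4 held a boundary, against 5.25% on the other arms. From 5 to 10 kb it was 7 of 31, against 14.0%, and from 10 to 20 kb 4 of 17, against 17.0%. Over 20 kb it was 6 of 12, against 24.3% on the other arms, a share inside the wide 21.1 to 78.9% interval of the 12 genes. In the shorter bands the share of the other arms also lay inside the interval of chromosome 4. These intervals were 0.0744 to 15.3% below 5 kb, 9.59 to 41.1% from 5 to 10 kb and 6.81 to 49.9% from 10 to 20 kb. Of the 18 boundaries, 6 lay in the first 10% of the gene, 5 in the last 10% and 7 in between. Those at the 5' end included GJ18433, 0.202 kb from its start, and those at the 3' end included GJ13730 and GJ16077, at 97.3% and 99.1% of the gene length. The middle group included GJ21981 at 72.2%, GJ15760 at 48.7% and GJ18580 at 43.9%. In GJ14595 and GJ18882 a boundary in mid-gene lay 0.144 and 0.208 kb from an internal start site, so a boundary in mid-gene can still be at a start site.

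The 32 boundaries delimit 31 TADs, numbered T01 to T31 from the left. Their median length was 30.5 kb (25.3 to 42.4 kb) and their mean 37.5 kb, and they ran from 6.76 to 140.6 kb. The other arms had medians of 37.4 kb on 2R to 45.3 kb on X, of which only that of X lies outside the interval of chromosome 4, and longest TADs of 561.6 kb on 3L to 1194 kb on 2R. TADs of chromosome 4 held few gene starts, with a median of 3 and a maximum of 9, against medians of 4 or 5 and maxima of 45 to 71. TADs with at most 1 gene start made up 38.7% on chromosome 4 (4 with none and 8 with 1), against 12.6% on 2L to 17.2% on 3R.

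**Figure D4:**
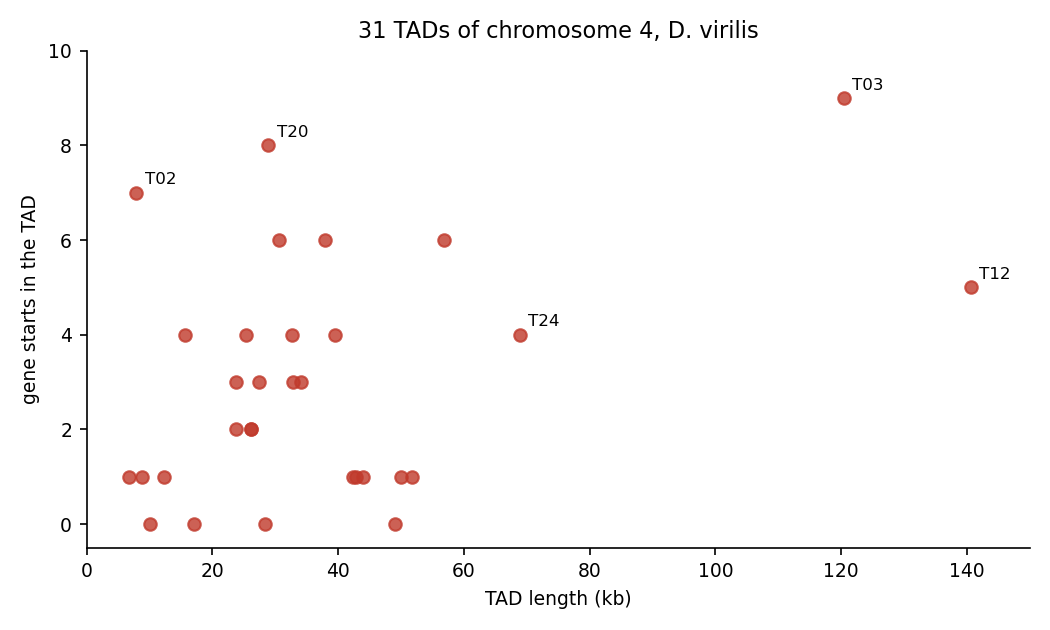
Number of gene starts against length (kb) for the 31 TADs of chromosome 4 of D. virilis, with T02, T03, T12, T20 and T24 labelled by their order from the left. The 12 TADs with at most 1 gene start lie between 6.76 and 51.8 kb, and only T03 and T12 exceed 100 kb.

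The longest TAD, T12 (964919 to 1105562), measured 140.6 kb and held the starts of GJ19804, GJ13949, GJ19746, GJ14121 and GJ14147. GJ19746 alone covered 40.9% of it. The TAD with the most gene starts was T03 (557607 to 678087), with 9 coding genes in 120.5 kb, from GJ12430 and GJ12536 to GJ21334 and GJ12969. T20 was far denser, with 8 coding gene starts in 28.9 kb. T02 held 7 gene starts in 7.91 kb, but 5 of these were small nucleolar RNA genes inside the noncoding gene GJ25952, which has 16 exons, and only GJ21872 was coding.

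Several TADs were filled by a single gene. After the values had been seen, the share of each TAD covered by its most extended gene was computed. A single gene covered at least 80% of 6 of the 31 TADs (19.4%, 7.45 to 37.5%), against 14.6% of all TADs and 13.1% on 3L to 16.1% on 2R among the other arms, so the share was close to the background. T01 (499698 to 549699) coincided with the first 49.8 kb of GJ21981, from its start at the strongest boundary of the chromosome to a weak boundary in an intron (score 0.207). T25 was 99.98% GJ15760, from its mid-gene boundary to its end. T27 was 95.4% GJ16077, T28 was 90.7% GJ18433, T10 was 83.1% GJ13730 and T30 was 96.3% GJ16393. In T27, T28, T10 and T30 over 95% of the gene also lay within the TAD. Gene and TAD had nearly the same limits only in T27 and T30, since GJ13730 started 8.76 kb inside the left limit of T10. Of the 5 longest members, GJ19746 alone contained no boundary.

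Boundaries were missing from both ends of the chromosome. The first lay at 499273 to 500123 and the last at 1662001 to 1662902, so that 499.7 kb on the left (27.1% of the chromosome) and 180.1 kb on the right (9.78%) were without any. Together these stretches made up 36.9% of the chromosome, against 1.71% on X to 2.78% on 3L. In kb the left stretch was not extreme, since the first boundary of 3L lay 686.0 kb and that of 2L 524.9 kb from the end of the assembled arm. The ends were poor in genes. The left stretch held 7 gene starts (14.0 per Mb) and the right 5 (27.8 per Mb), against 79.98 per Mb between the outermost boundaries. Genes covered 10.6% of the left and 11.2% of the right stretch, and 75.4% of the part between. The left stretch held GJ25767 of 5.83 kb, the 5 single-exon genes of 480 to 486 bp, and GJ12217, which measured 25.4 kb with 25 exons. Between GJ26552 and GJ12217 lay the widest gap of the chromosome, 254.8 kb without a gene. Of 10 gaps over 20 kb, 7 lay outside the outermost boundaries. On the right lay the noncoding gene GJ26543 and the coding genes GJ26757, GJ25787, GJ26429 and GJ25846.

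The names of the boundaries bear on these ends, because they carry a running number of Hi-C matrix bins. In D. melanogaster, where the bins could be rebuilt from DpnII sites of the genome, the number never advanced by more than the rebuilt bins between neighbouring boundaries on any arm, and on chromosome 4 it advanced by 1747 over 1884 rebuilt bins. The numbers are therefore taken here to count bins kept in the matrix, which was not checked in D. virilis. In D. virilis the number advanced by only 144 from the last boundary of X to the first of chromosome 4, an interval that spans 498.2 kb at the end of X and 499.7 kb at the start of chromosome 4. Even if all 144 bins belonged to chromosome 4, that stretch had 0.288 bins per kb, against 1.58 per kb between its outermost boundaries and 1.15 to 1.18 per kb on the other arms. On this reading, the 7 genes of the left stretch lay where few bins had been kept, and the part of this in the missing boundaries was not tested. Bins at the right end cannot be counted from the names.

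Both named genes could be set beside their D. melanogaster counterparts, also on chromosome 4. D. virilis ey (1370825 to 1391876, plus strand) spanned 21.1 kb with 9 exons and 2718 nt of coding sequence (906 residues). D. melanogaster ey (697689 to 721173 in the BDGP6 assembly, plus strand) spanned 23.5 kb with 9 exons and 2694 nt (898 residues). The next coding gene downstream, on the same strand, was GJ15760 in D. virilis, 2.56 kb away and with 47 exons and 27009 coding nt. In D. melanogaster it was bt, which encodes the giant muscle protein projectin, 3.23 kb away and with 44 exons and 26799 coding nt. The position of the boundary differed. D. virilis ey started 18.5 kb from the nearest boundary centre, in the intron of GJ18580 described above, and D. melanogaster ey started 0.168 kb from one, which ranked 2 in its list with a score of -0.443. On the other side, GJ15760 held a weak boundary in D. virilis (score 0.177) and bt held none. A boundary lay at the far end of both genes. In D. virilis it was at 1449166 to 1450076, across the GJ15760 end at 1449614. In D. melanogaster it was at 776573 to 777022, past the bt end at 776474. Upstream of ey the nearest coding gene also differed in size: GJ18580 encoded 1531 residues 15.1 kb away, and myo, which encodes a TGF-beta family ligand, 598 residues 1.63 kb away. The noncoding gene GJ25656 lay between GJ18580 and ey. A strong boundary thus lay upstream of ey in both lists, at different distances.

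D. virilis ATPsyn-beta (794071 to 796417, plus strand) spanned 2.35 kb with 3 exons and 1518 coding nt (506 residues) and started 2.35 kb from a boundary with a score of -0.127. D. melanogaster ATPsynbeta spanned 3.43 kb with 3 exons and 1533 coding nt (511 residues) and started 5.22 kb from a boundary with a score of 0.0136. The boundary on the left lay within a minus-strand gene in both: in the 5' UTR of GJ20569 (1969 residues) in D. virilis and in PlexA (1945 residues), a semaphorin receptor gene, in D. melanogaster. The nearer coding neighbours on that side differed. In D. virilis this was GJ13513 (plus strand, 159 residues). In D. melanogaster these were Mpv17 (168 residues) and CG11076 (279 residues), both on the minus strand, and CG11076 overlapped ATPsynbeta. On the right, GJ20463 in D. virilis and CaMKII, the gene of a calcium- and calmodulin-dependent protein kinase, in D. melanogaster lay on the minus strand, and both had 1593 coding nt. In D. virilis the plus-strand gene GJ25947 (797329 to 805356), with 264 coding nt, started between and overlapped GJ20463 (800167 to 815720). Apart from ey and ATPsyn-beta no gene was matched between species, and whether these neighbours correspond was not tested. Of a list of 46 D. melanogaster chromosome 4 symbols, 45 were found on chromosome 4 of that annotation and these 2 in D. virilis. All other D. virilis members carry only a numbered GJ symbol, so the search by symbol could find no more there.

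Boundaries of chromosome 4 were about equally many in the 3 species. There were 32 in D. virilis over 1.16 Mb from first to last, 29 in D. busckii over 0.916 Mb and 32 in D. melanogaster over 1.16 Mb. The median TAD was 30.5 kb (25.3 to 42.4 kb) in D. virilis, 31.1 kb (20.1 to 38.4 kb) in D. busckii and 34.9 kb (22.8 to 44.0 kb) in D. melanogaster, each within the intervals of the others. With only the boundaries below the median score of each list, the medians were 36.0 kb (25.3 to 69.1 kb) in D. virilis, 38.6 kb (30.3 to 59.1 kb) in D. busckii and 61.2 kb (37.4 to 97.2 kb) in D. melanogaster, and that of D. melanogaster then lay outside the D. busckii interval and that of D. virilis outside the D. melanogaster interval. The longest TAD measured 140.6 kb in D. virilis, 84.3 kb in D. busckii and 92.5 kb in D. melanogaster. Scores below 0 were found at 21 of 32 boundaries in D. virilis, 25 of 29 in D. busckii and 23 of 32 in D. melanogaster, and the scale of the scores is not stated to be comparable between lists. The starts differed most: the first boundary lay at 499273 in D. virilis, against 52163 in D. busckii and 68756 in D. melanogaster. Whether these left ends correspond between species was not tested. The paper marks chromosome arms that are fused in a species, and whether chromosome 4 is a free chromosome in all 3 was not examined here. In D. virilis ATPsyn-beta (start 794071) lay left of ey (1370825). In D. melanogaster ATPsynbeta (1031484) lay right of ey (697689), so their order was opposite. How much sequence each assembly holds before its first unique bins was not compared.

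**Figure D5:**
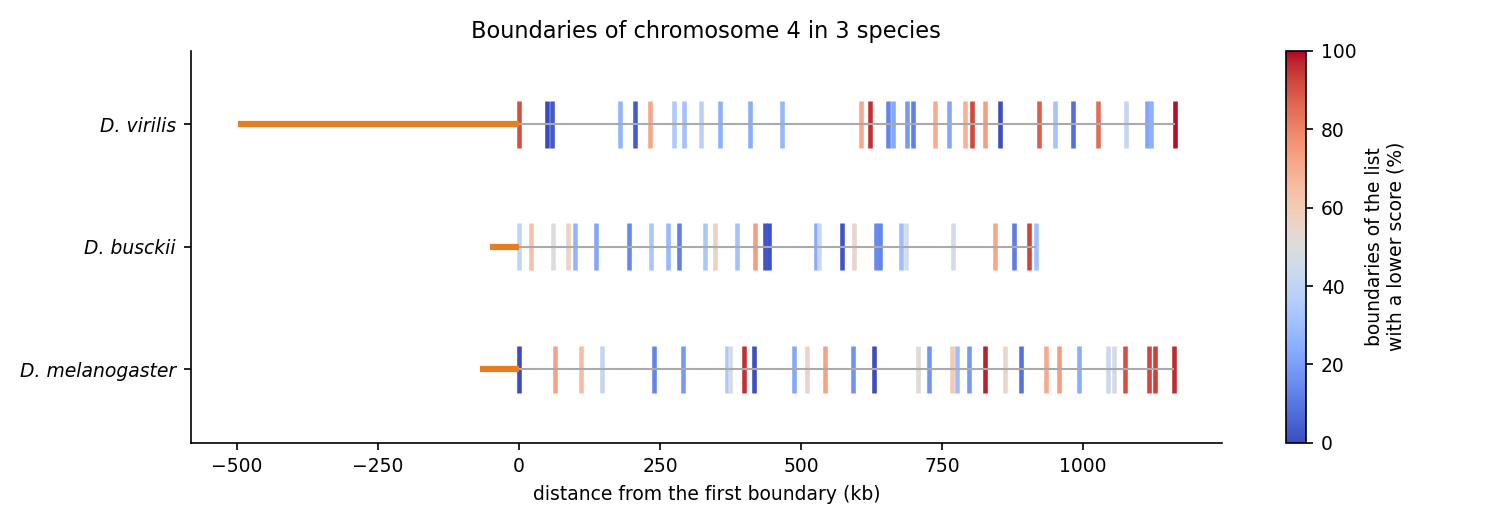
Boundaries of chromosome 4 (vertical ticks) in D. virilis, D. busckii and D. melanogaster against the distance from the first boundary in kb, with the stretch before the first boundary in orange. Tick colour gives the share of boundaries of the same species' list with a lower score in percent, and the orange stretch is 499.3 kb long in D. virilis, against 52.2 kb in D. busckii and 68.8 kb in D. melanogaster. Whether the left ends correspond between species was not tested.

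The D. melanogaster annotation showed long dot genes too. Its 80 coding genes of chromosome 4 had a median span of 10.1 kb (7.64 to 12.6 kb), against 1.99 kb on 2L to 2.52 kb on X, and a median intron share of 51.0%. A boundary lay inside 19 of them and 19 started within 1000 bp of one (23.8% in each case), against 9.60 to 11.6% and 14.9 to 17.1% on the other arms. The longest were bt with 52.1 kb, pan, the TCF factor gene of Wnt signalling, with 44.9 kb, and unc-13, a gene of synaptic vesicle release, with 44.5 kb. The lowest scores were at pan (-0.448), at ey and at Asator, a kinase gene (-0.322), each within 0.312 kb of a start site. The annotations differ in depth, so these values stand beside those of D. virilis without a comparison.

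Since the D. melanogaster boundaries could be placed on sequence, 2 promoter motifs known at fly boundaries were looked for in 1001 bp around each centre, on both strands: motif 1 (GGTCACACT), bound by M1BP, and the palindromic DRE (TATCGATA), bound by DREF and BEAF-32. Motif 1 was found at 3 of 32 boundaries of chromosome 4 (9.38%, 1.98 to 25.02%) and at 10.5% of all boundaries, although it is rare on this chromosome, with 5 sites from the first to the last boundary. The DRE was found at 5 of 32 (15.6%, 5.28 to 32.8%) and at 14.1% of all boundaries. It is frequent on chromosome 4, where 9.14% of consecutive windows of the same length held it, against 2.32% on 3R to 3.40% on X. For motif 1 that share was 0.345% on chromosome 4 and 0.821% on 2L to 1.27% on X. Of 112 DRE sites on that stretch, 5 lay within 500 bp of a boundary centre and 17 within 500 bp of a start site. Of the 5 motif 1 sites, it was 3 in each case. The matches printed below were chosen because they lay within 32.5 bp of a start site. They are given 5' to 3' on the strand of the match, with the motif in capitals (RefSeq, Release 6 plus ISO1 MT). The named start site is the nearest one, and the 3 motif 1 matches lay 9.5 to 32.5 bp from it.
Rad23, chr4:308098-308127, plus strand, motif 1: gtccatgtgcGGTCACACTgatgacaaatc
Zyx, chr4:1060872-1060901, minus strand, motif 1: tctcgtgttaaGGTCACACTgctgggcctc
Dyrk3, chr4:1230690-1230719, minus strand, motif 1: tgttttaacacGGTCACACTgttcttctct
Hcf, chr4:359916-359945, plus strand, DRE: agcaatctatgTATCGATAtttttcttctg
Taf3, chr4:466845-466874, plus strand, DRE: gatgggaaataTATCGATAtttggggtatg
Eph, chr4:610692-610721, plus strand, DRE: gttataaaagtTATCGATAccagttgtttt
Rad23 is a ubiquitin receptor of DNA repair, Zyx a focal adhesion protein, Dyrk3 a protein kinase, Hcf a chromatin cofactor, Taf3 a subunit of the general transcription factor TFIID and Eph a receptor tyrosine kinase. The DRE matches at Hcf, Taf3 and Eph lay 8, 31 and 22 bp from the start site. The other 2 DRE matches lay 210 bp from the start of the pseudogene CR46405 and 780 bp from one of CG33521. The scores of these boundaries were spread, with -0.201 at Rad23, -0.157 at Zyx and 0.246 at Dyrk3, and -0.181 at Hcf, 0.219 at Taf3 and 0.00695 at Eph. The boundaries with the lowest scores, at pan and ey, held neither motif, which says only that these letters were not in that window.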

How the data were processed

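Reads had been aligned by the authors with BWA and binned by DpnII fragments with HiCExplorer. The 2 replicates of a species were added up, bins of low coverage and bins of unusually high coverage were dropped, and hicFindTADs was applied. Each deposited boundary comes with 2 positions and a TAD-separation score, the authors' own measure. The other deposited values used are positions, in the gene annotation that the authors lifted from FlyBase scaffolds and in the chain file of the lift. Read depth was not used here. D. melanogaster genes came from Ensembl release 115. On chromosome 4, 79.7% of D. melanogaster boundary edges lay within 3 bp of a rebuilt bin centre (71.7 to 81.8% on other arms), and at most 1.30% did after a shift of 1000 bp. D. busckii genes were not analysed here.

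A boundary was taken at its centre and a TAD between consecutive centres. A gene start is the outer end of the gene on its strand. The lists and members were chosen with earlier results of these data known. Genes named were, by a fixed rule, the symbols of a D. melanogaster chromosome 4 list, the 5 longest and 5 shortest coding genes, genes at the 5 lowest and 3 highest boundary scores, in the longest and fullest TAD, at the ends, with most start sites, and with extreme distances to a boundary. GJ16393, GJ14595, genes beside ey and ATPsyn-beta, and genes at the motif matches were named after their values were seen, as were the measure of TADs filled by a single gene and the motif search. Alternatives changed the genes, window, boundary position, boundaries used and statistic. Python 3.11.15, NumPy, SciPy and matplotlib were used, and the functions were tested on simulated data.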

Additional observations from a re-analysis of the deposited data

How the results depend on the processing

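Of 27 alternatives, 20 left the value within the 95% interval of the main value and 7 did not. The median length of the dot genes was 2.54 kb as the longest transcript in place of 5.83 kb as genomic span, against 1.42 to 1.58 kb on the other arms. Gene density was 79.98 per Mb between the outermost boundaries. The share of gene starts near a boundary was 12.4% within 500 bp and 41.0% within 5000 bp, against 8.23 to 9.66% and 28.0 to 33.1% on the other arms. With only the 21 boundaries below the list median score, the median distance to a boundary was 10.9 kb, against 25.4 to 35.3 kb on the other arms, and the median spacing on chromosome 4 was 36.0 kb in D. virilis, 38.6 kb in D. busckii and 61.2 kb in D. melanogaster, so that the medians of the 3 species no longer all lay within each other's intervals. Under each alternative tried for gene length, start share and distance, computed on all arms of D. virilis, chromosome 4 had the highest length, the highest share and the lowest distance, but its density exceeded that of X between the outermost boundaries. At each window size, though, the interval of the chromosome 4 start share held the shares of some other arms. No paired analysis was possible because each species has 1 merged map. No replicate could be left out. With 32 boundaries and 105 genes the intervals are wide, and the read depth of the maps was not used here. Few bins were kept at the left end if the boundary names count kept bins.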
